A study of Homo sapiens with 4 samples.

Results

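Expression of 10 genes of the YAP/TEAD pathway was followed in HEK293T, a transformed line from human embryonic kidney with SV40 large T antigen, when the chromatin remodeler CHD6 was targeted by a siRNA. The genes were the secreted targets CCN1 and CCN2, the targets and feedback regulators AMOTL2, ANKRD1, AJUBA and LATS2, the scaffold AMOTL1, the coactivators YAP1 and WWTR1, and the DNA-binding partner TEAD1. They were chosen by symbol with earlier results of these arrays known, including the mean log ratios of CCN1, its features and AMOTL2. The means, their ranks and their signs are therefore given as a description. All 10 were measured, by 23 of the 45220 array features, among 18334 genes named by 1 or more features.

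HEK293T cells transfected with a plasmid that expresses a siRNA against CHD6 were compared with HEK293T cells given a control siRNA plasmid, 48 h after transfection. There was 1 group of 4 arrays, and each array carried both RNAs in different dyes. The CHD6 siRNA sample was labelled with Hy5 on replicates 2 and 4 and with Cy3 on replicates 1 and 3. Nothing in the labels says whether the 4 replicates were separate cultures, so the spread and the p-values may be technical.

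Values are log ratios of CHD6 siRNA over control siRNA, taken as log2, in the direction that the 4 titles give. That direction is taken from the titles as likely. It is not settled, because arrays of opposite dye orientation correlated at -0.84 to -0.68 across features and arrays of 1 orientation at 0.79 to 0.80. If the deposited columns were instead Hy5 over Cy3, the treatment difference would be the dye difference divided by 2, where the dye difference is the log ratio with siRNA in Hy5 minus that with siRNA in Cy3. Both quantities are therefore given. Log ratios hold no level, so neither the abundance of a transcript nor the markers of the cell line could be checked.

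In this pathway the kinases STK3 and STK4 activate LATS1 and LATS2, which phosphorylate YAP1 and WWTR1 (TAZ) and keep them out of the nucleus. Unphosphorylated YAP1 and WWTR1 enter the nucleus, bind TEAD factors at the motif GGAATG and switch on genes for matricellular proteins, cytoskeletal scaffolds and the pathway's own inhibitors. The pathway responds to cell density and cell tension.

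The motif was searched in RefSeq promoter windows (GRCh38.p14, 250 bases before to 50 after a gene start), because CCN2 and ANKRD1 are textbook TEAD targets whose values are described further on. GGAATG, read on both strands with overlaps allowed, was found in 14.0% of 35116 windows and for 16.7% of 27305 genes. Windows were matched for 8 of the 10 genes, all except CCN1 and TEAD1, and 6 of those 8 held it in at least 1 window. CCN2 held 3 copies, as 0.128% of all windows do with 3 or more, and ANKRD1 held 2, as 1.37% of windows do with 2 or more. The stretches upstream of both starts are printed 5′ to 3′ on the gene's strand, with the motif in capitals. CCN2 lies at chr6:131951373-131951552 and ANKRD1 at chr10:90921088-90921317, both on the minus strand.
CCN2: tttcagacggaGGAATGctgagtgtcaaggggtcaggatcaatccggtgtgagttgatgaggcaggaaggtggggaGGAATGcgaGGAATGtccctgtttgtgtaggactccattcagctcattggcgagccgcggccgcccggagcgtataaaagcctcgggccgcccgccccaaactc
ANKRD1: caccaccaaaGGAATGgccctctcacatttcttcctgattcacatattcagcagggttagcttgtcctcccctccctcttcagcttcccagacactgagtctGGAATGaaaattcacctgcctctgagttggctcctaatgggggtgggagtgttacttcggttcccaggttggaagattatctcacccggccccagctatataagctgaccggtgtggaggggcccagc

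The motif began 169, 104 and 95 bases before the start of CCN2 and 220 and 128 bases before that of ANKRD1. AMOTL2 and AJUBA each have 2 annotated windows, of which 1 held a single copy, and YAP1 has 1 window with 1 copy. Their surrounding bases are shown to set a single copy beside the repeated copies of CCN2. They lie at chr3:134374499-134374528 (minus strand) for AMOTL2, chr14:22976884-22976913 (minus strand) for AJUBA and chr11:102110273-102110302 (plus strand) for YAP1. In AMOTL2 the motif is on the opposite strand and so reads CATTCC.
AMOTL2: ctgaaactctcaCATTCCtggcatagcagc
AJUBA: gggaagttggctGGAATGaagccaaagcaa
YAP1: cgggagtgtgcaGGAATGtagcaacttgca
The single copy of LATS2 lay just after the start, and the windows of AMOTL1 and WWTR1 held none. These matches describe letters in a window and were not tested as binding sites.

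CHD6 itself averaged -0.45 ± 0.15 (log2 ratio, SD, n = 4) over its 3 features. Most of this came from feature 27564, at -1.15 ± 0.24 (SD, n = 4), with the others at -0.17 and -0.015. Feature 27564 read -1.21 and -1.42 with siRNA in Hy5 and -1.13 and -0.85 with siRNA in Cy3, below 0 on all 4 arrays. Turned by dye, the gene mean would be -0.095 ± 0.53 and feature 27564 would be at -0.16 ± 1.34 (SD, n = 4 each). The direction of the columns was not tested with these values. Over all 18334 genes, limma with a dye coefficient called 0 genes higher and 4 lower on the mean log ratio at an adjusted p of 0.05, or 0.0218% of genes. Without the dye coefficient it called 0, with 242 genes at an unadjusted p under 0.05. CHD6 as a gene was not among the 4 called with the dye coefficient (limma adjusted p = 0.134). Its feature 27564 passed in the fit over all features (limma adjusted p = 0.0339). None of the 10 genes and none of their 23 features was among the calls of either kind (features called, 0.0199%). Of the 10 gene means, 5 lay above 0 and 5 below, with a median of 0.02 against -0.0025 over all genes.

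CCN1 and AMOTL2 were the 2 of the 10 genes that lay above 0 on every array, and none lay below 0 on every array. Over all genes, 3.56% were above 0 on all 4 arrays and 3.5% below. The genes were chosen with their means known, so this count is a description and was not tested. The other 8 genes changed sign between arrays.

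CCN1, a secreted matricellular protein that binds integrins and is a standard readout of YAP activity, had log2 ratios of 0.55 and 0.45 with siRNA in Hy5 and of 0.34 and 0.39 with siRNA in Cy3. All 4 arrays lay within a narrow range above 0. The mean was 0.43 ± 0.09 (SD, n = 4), a 1.35-fold ratio, and it ranked 43 from the highest of 18334 gene means. This SD was smaller than those of the single CCN1 features, which ran from 0.12 to 0.33. The dye differences of these features ran from -0.27 to 0.50 and partly cancelled in the average. If the arrays were turned by dye, CCN1 would be at 0.07 ± 0.50 (SD, n = 4).

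The 4 features of CCN1 did not give 1 value. Feature 5539 read 0.69 and 0.31 with siRNA in Hy5 and 0.73 and 0.81 with siRNA in Cy3. Feature 28401 read 0.68 and 0.41 in the Hy5 orientation and 0.66 and 0.60 in the Cy3 orientation. Feature 13018 read 0.78 and 0.68 in the Hy5 orientation and 0.31 and 0.36 in the Cy3 orientation. These 3 are annotated to the RefSeq transcript NM_001554, and all 12 of their values were above 0. Averaged without the remaining feature they gave 0.58 ± 0.10 (SD, n = 4), a 1.5-fold ratio, and 0.0067 if turned by dye. This choice of features was made after their values were seen.

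The remaining CCN1 feature, 25057, is annotated to the expressed sequence tag AI401097. It read 0.04 and 0.39 with siRNA in Hy5 and -0.35 and -0.22 with siRNA in Cy3, a mean of -0.035 ± 0.33 (SD, n = 4). Its values changed sign with the dye and lowered the gene mean of CCN1 on every array. Which part of the transcript each feature covers is not given in the sources used here.

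AMOTL2, an angiomotin family scaffold that binds YAP1 at cell junctions and is itself a YAP target, had log2 ratios of 0.40 and 0.61 with siRNA in Hy5 and of 0.11 and 0.40 with siRNA in Cy3. The orientations met at 0.40, and replicate 1 was the lowest. The mean was 0.38 ± 0.21 (SD, n = 4), a 1.30-fold ratio and rank 74 from the highest, on 1 feature. It would be at 0.13 ± 0.46 (SD, n = 4) if turned by dye. Leaving out 1 array at a time gave means of 0.31 to 0.45 for AMOTL2, against 0.41 to 0.46 for CCN1.

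**Figure D1:**
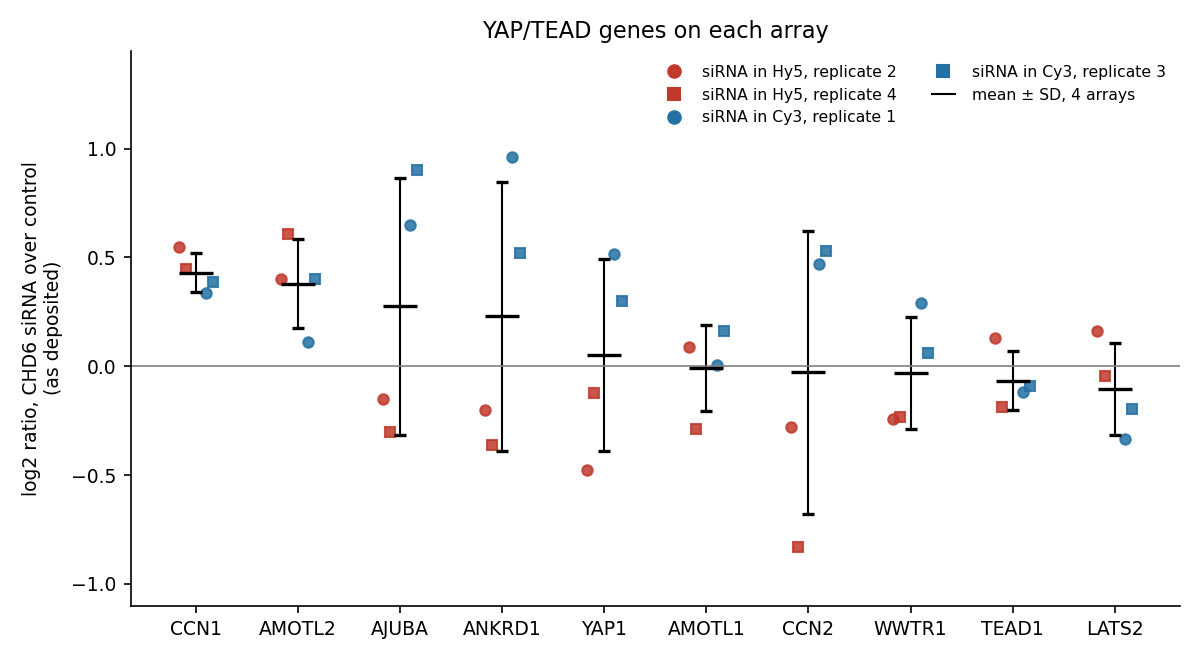
Log2 ratios of the 10 genes on each of the 4 arrays (points; red, siRNA in Hy5; blue, siRNA in Cy3), with the mean and SD over arrays (black), genes ordered by mean. CCN1 and AMOTL2 have all 4 points above 0, whereas AJUBA, ANKRD1, CCN2, YAP1 and WWTR1 have both red points below 0 and both blue points above 0.

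In AJUBA, ANKRD1, CCN2, YAP1 and WWTR1 the sign of the log ratio followed the dye, below 0 on both arrays with siRNA in Hy5 and above 0 on both with siRNA in Cy3. AJUBA, a LIM-domain protein that restrains LATS kinases, had log2 ratios of -0.15 and -0.30 with siRNA in Hy5 and of 0.65 and 0.90 with siRNA in Cy3. ANKRD1, an ankyrin repeat protein used as a YAP readout, had -0.20 and -0.36 in the Hy5 orientation and 0.96 and 0.52 in the Cy3 orientation. CCN2, the close relative of CCN1 also known as connective tissue growth factor, had -0.28 and -0.83 in the Hy5 orientation and 0.47 and 0.53 in the Cy3 orientation. YAP1, the main coactivator of TEAD factors, had -0.475 and -0.125 in the Hy5 orientation and 0.515 and 0.30 in the Cy3 orientation. WWTR1, which encodes the related coactivator TAZ, had -0.24 and -0.23 in the Hy5 orientation and 0.29 and 0.062 in the Cy3 orientation. In each of these 5 genes the orientations did not overlap. They did not overlap either in CCN1 and LATS2, so in 7 of the 10 genes, 5 of them with the Hy5 orientation lower, against 70.8% and 29.5% of all genes.

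The mean log2 ratios of the 3 targets were 0.28 ± 0.59 for AJUBA, 0.23 ± 0.62 for ANKRD1 and -0.028 ± 0.65 for CCN2 (SD, n = 4 each). Each mean was smaller than its SD between arrays. The mean of ANKRD1 ran from 0.12 to 0.34 as single arrays were left out. CCN2 changed sign on leaving out single arrays (-0.17 to 0.11). CCN1, averaged over its features, was above 0 on each array, and CCN2 was split by dye.

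The dye difference was not used to choose the genes and could be tested. limma called it for 5 of the 10 genes (adjusted p under 0.05), all with lower log ratios when siRNA was in Hy5. Over all genes it was called for 44.8%, of which 18.0% of genes lay below 0 and 26.9% above. The count of 5 of 10 is close to this background; that all 5 lay below 0 is given as a description. The dye difference (log2) was -1.0 for AJUBA (SE 0.15, limma adjusted p = 0.00111), -1.02 for ANKRD1 (SE 0.18, adjusted p = 0.00218) and -1.055 for CCN2 (SE 0.19, adjusted p = 0.00276).

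The coactivators were the other 2 genes called. YAP1 had a dye difference of -0.71 (SE 0.17, limma adjusted p = 0.00952). WWTR1 had -0.41 (SE 0.14, limma adjusted p = 0.0462). CCN1 (0.14, limma adjusted p = 0.469) and AMOTL2 (0.25, limma adjusted p = 0.251) did not pass, nor did LATS2 (0.32), TEAD1 (0.08) and AMOTL1 (-0.18). AJUBA and ANKRD1 were called whichever array was left out. CCN2 was lost without replicate 1 or 3, YAP1 without replicate 1, 2 or 3, and WWTR1 without any 1 array, while 25.4% to 37.2% of all genes were called with 1 array left out. Without moderation 0 of the 10 genes and 5 of all 18334 genes passed.

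**Figure D2:**
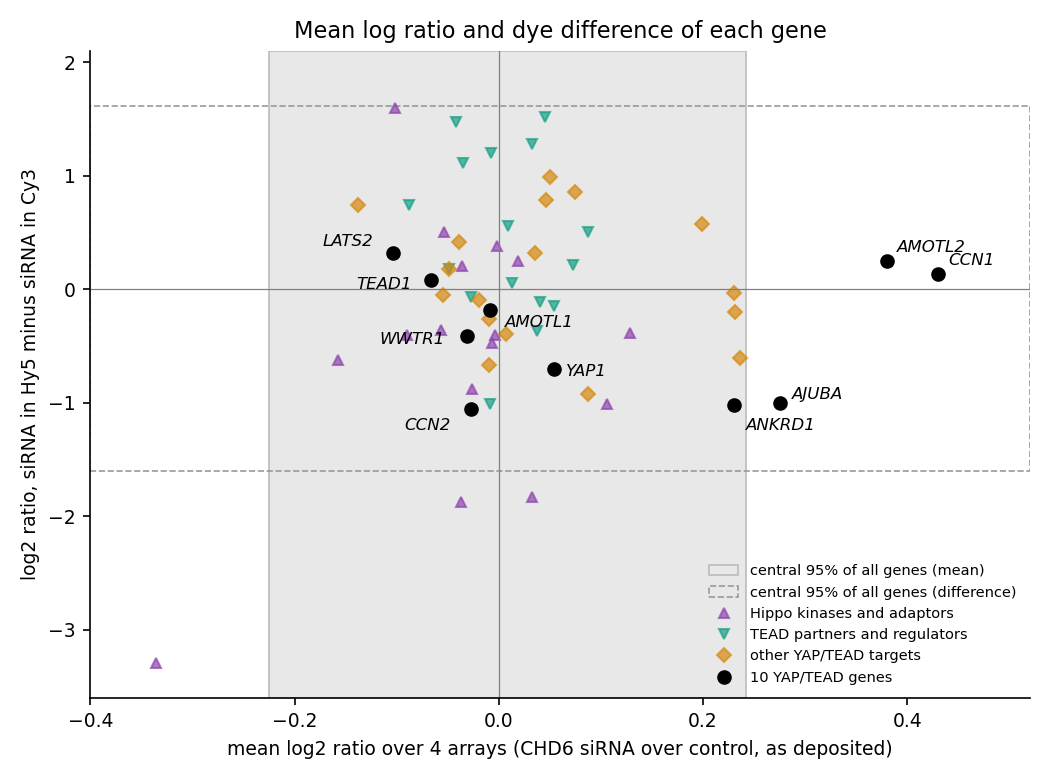
Mean log2 ratio over the 4 arrays (horizontal) against the log2 ratio with siRNA in Hy5 minus that with siRNA in Cy3 (vertical) for the 10 genes (black, labelled) and for 3 pathway lists (coloured); the grey band and the dashed lines hold the central 95% of all genes on each axis. CCN1 and AMOTL2 lie to the right near a dye difference of 0, and AJUBA, ANKRD1 and CCN2 lie near a dye difference of -1.

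Read with the arrays turned by dye, the same values would call 5 genes below control. CCN2 would be at -0.53 ± 0.23, ANKRD1 at -0.51 ± 0.33, AJUBA at -0.50 ± 0.34, YAP1 at -0.35 ± 0.18 and WWTR1 at -0.21 ± 0.10 (log2 ratio, SD, n = 4 each). All 5 would pass in limma without a dye coefficient (adjusted p from 0.00269 to 0.0432), as would 42.0% of all genes. CCN1, AMOTL2, AMOTL1, LATS2 and TEAD1 would not pass, though AMOTL1 would also lie below 0 (-0.091). Which reading holds was not settled by the values of these genes.

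The gene values of YAP1 and WWTR1 rested on features that differed. Feature 19498 of YAP1 read -1.20 and 0 with siRNA in Hy5 and 1.21 and 0.56 with siRNA in Cy3, the widest range of the 23 features. The other YAP1 feature, 21596, annotated to the same transcript, read 0.25 and -0.25 in the Hy5 orientation and -0.18 and 0.04 in the Cy3 orientation. The dye difference passed at the first (-1.49, limma adjusted p = 0.0197 over all features) and not at the second (0.07, limma adjusted p = 0.842). The mean of YAP1 over both was 0.054 ± 0.44 (SD, n = 4).

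WWTR1 had 5 features with means from -0.18 to 0.11, and a gene mean of -0.031 ± 0.26 (SD, n = 4). The dye difference passed at the 2 features annotated to the clone sequence AK130514, 12258 (-1.22) and 18774 (-1.01), and at neither of those annotated to NM_015472 (0.28 and -0.13). Feature 28253 read -0.26 and -0.03 with siRNA in Hy5 and -0.19 and -0.12 with siRNA in Cy3, and was the 1 feature of the 23 below 0 on all arrays. With the median of the features in place of the mean, the dye call of WWTR1 was lost.

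TEAD1, the factor that carries the coactivators to DNA, had 2 features that ran against each other. Feature 25058 read 0.17 and 0.01 in the Hy5 orientation and -0.64 and -0.52 in the Cy3 orientation, and its dye difference passed (0.67, limma adjusted p = 0.0116). Feature 19560 read 0.09 and -0.38 in the Hy5 orientation and 0.40 and 0.34 in the Cy3 orientation (-0.52, limma adjusted p = 0.0738). Both are annotated to NM_021961. Their average, -0.066 ± 0.14 (SD, n = 4), had a narrower spread than either feature.

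AMOTL1, a scaffold related to AMOTL2, averaged -0.0088 ± 0.20 (SD, n = 4) over 4 features with means from -0.088 to 0.028. Its dye differences passed in opposite directions at feature 24503 (0.70) and feature 42819 (-1.03). LATS2, the kinase that inactivates YAP1 and WWTR1 and is induced by them, averaged -0.10 ± 0.21 (SD, n = 4). Its 2 features had means of -0.18 and -0.028, and neither passed on the dye difference. In all, the dye difference was called at 9 of the 23 features, against 37.3% of all features. Of the 23 features, 4 were above 0 on all arrays (3 of CCN1 and that of AMOTL2) and 1 below, against 3.45% and 3.3% of all features. This count too is a description, as the means were known when the genes were chosen.

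**Figure D3:**
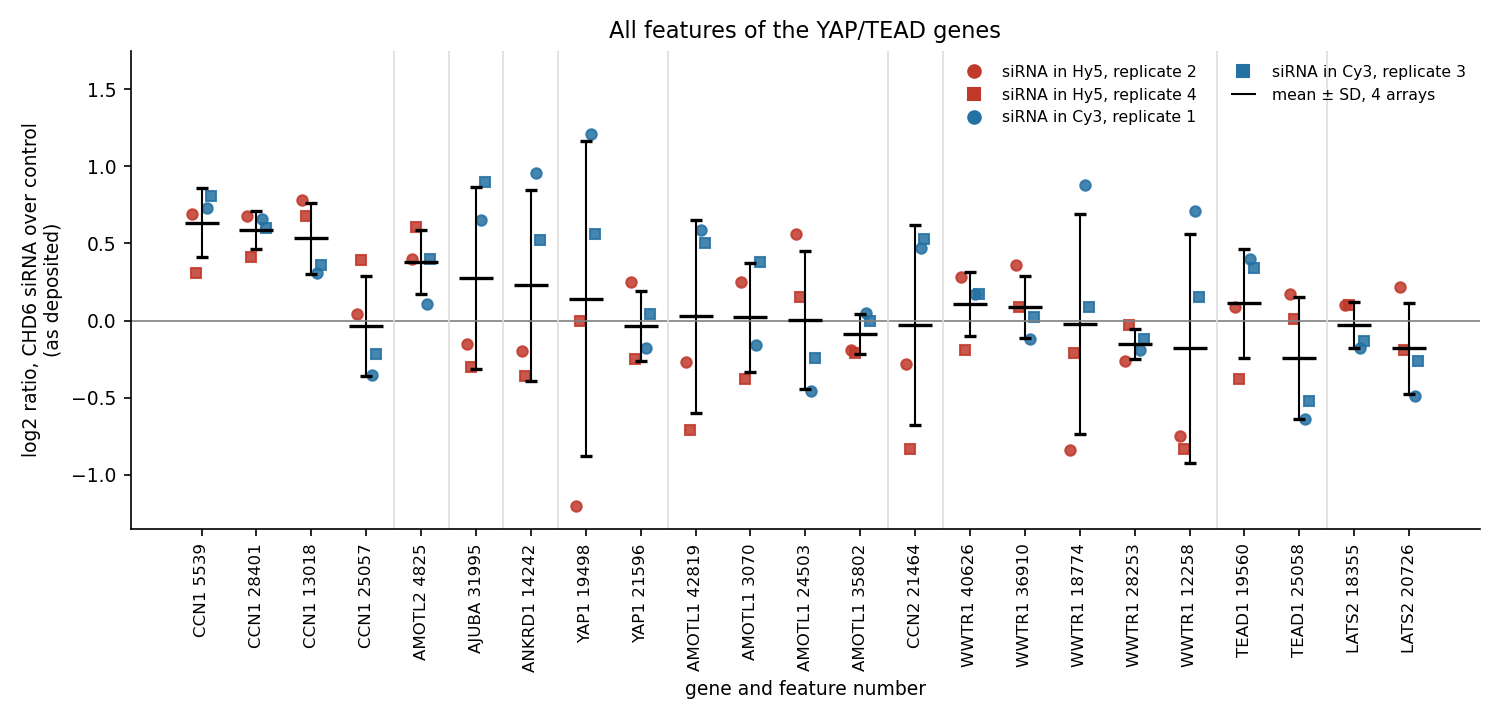
Log2 ratios of all 23 features of the 10 genes on each array (points; red, siRNA in Hy5; blue, siRNA in Cy3), with mean and SD (black). The first 3 CCN1 features have every point above 0 and the fourth has points on both sides; features of YAP1, WWTR1, TEAD1 and AMOTL1 differ in which colour is on top.

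The rest of the pathway was described from lists that were written with earlier results known. Of 17 other YAP/TEAD targets, 0 passed on the mean log ratio in either direction, 10 had means above 0 and 7 below, and the median was 0.035. Of these, 2 were above 0 on every array. MYOF, a membrane repair protein, had log2 ratios of 0.10 and 0.16 with siRNA in Hy5 and of 0.25 and 0.41 with siRNA in Cy3 (mean 0.23 ± 0.14, SD, n = 4, limma adjusted p = 0.357). GADD45A, a stress-induced growth arrest gene, had 0.03 and 0.40 in the Hy5 orientation and 0.29 and 0.20 in the Cy3 orientation (mean 0.23 ± 0.16, SD, n = 4, limma adjusted p = 0.440).

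On the dye difference, 9 of the 17 targets passed, 6 above 0 and 3 below, where 44.8% of all genes passed, 26.9% above 0 and 18.0% below. F3, the tissue factor gene, was at -0.93 and the receptor kinase gene AXL at 0.86, both named after their values were seen. Their mean log ratios as deposited were 0.0875 for F3 and 0.075 for AXL. Turned by dye, F3 would be at -0.46 and AXL at 0.43.

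Of 16 upstream Hippo kinases and adaptors, 0 passed on the mean log ratio, and the median was -0.031. In this list 4 means lay above 0 and 12 below, beside 9003 above and 9266 below over all genes. No gene of this list had 1 sign on all arrays. WWC2, a scaffold that promotes LATS activity, had the largest mean in size, at -0.34 ± 1.92 (SD, n = 4). It read -1.74 and -2.23 with siRNA in Hy5 and 1.51 and 1.11 with siRNA in Cy3, so its spread was far wider than its mean. The dye difference of WWC2 was -3.29 (limma adjusted p = 6.54e-05), and turned by dye WWC2 would be at -1.65. STK3, the kinase upstream of LATS, was at -0.16 ± 0.43 (SD, n = 4), with a dye difference of -0.625 (limma adjusted p = 0.0302). On the dye difference 10 of 16 passed, 8 of them below 0, beside 44.8% and 18.0% of all genes.

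Of 16 measured TEAD partners and other regulators, which share PTPN14 with the target list, 0 passed on the mean. The median was 0.011, and BTRC (-0.087) and VGLL2 (0.087) had the largest means in size. Their dye differences were 0.74 for BTRC (limma adjusted p = 0.00684) and 0.50 for VGLL2 (limma adjusted p = 0.0289). On the dye difference 9 passed, 8 above 0 and 1 below, beside 44.8%, 26.9% and 18.0% of all genes. TEAD2, TEAD3 and TEAD4, named after their values were seen, were at 1.20, 1.28 and 1.52 (limma adjusted p from 0.000147 to 0.000322). They had 1, 2 and 1 features. TEAD1 was at 0.08 (limma adjusted p = 0.734), the average of 2 features of opposite sign (0.67 and -0.52).

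Turned by dye and without a dye coefficient, limma would call 8 of the 17 other targets, 9 of the 16 kinases and adaptors and 9 of the 16 partners and regulators, beside the 42.0% of all genes. The other 4 CCN family genes all had means below 0 (-0.12 to -0.015), as did 9266 of all 18334 genes, and 0 passed on either quantity. CCN6 was at -0.12 ± 0.16 and CCN5 at -0.043 ± 0.11 (SD, n = 4 each). Of 14 measured targets of SRF and its MRTF cofactors, which also act at the CCN1 gene, 0 passed on the mean, and 8 means lay above 0 and 6 below (median 0.0075). On the dye difference 5 of these 14 passed, 4 above 0 and 1 below, beside 44.8%, 26.9% and 18.0% of all genes. ACTG1, cytoplasmic gamma-actin, was the 1 gene of that list with 1 sign, at -0.32 ± 0.25 (SD, n = 4, limma adjusted p = 0.368). ACTA2, smooth muscle actin, named after its values were seen, had the largest mean of that list in size. It read 0.39 and 1.05 with siRNA in Hy5 and -0.03 and 0.21 with siRNA in Cy3 (mean 0.405 ± 0.46, SD, n = 4, limma adjusted p = 0.321). The dye difference of ACTA2 was 0.63 (limma adjusted p = 0.0492). Markers of fibroblasts (8 measured, median 0.0072) and of immune cells (4 measured, median 0.046) had 0 calls on the mean. On the dye difference 3 of the 8 and 2 of the 4 passed, beside 44.8% of all genes. Of the fibroblast means 4 lay above 0 and 4 below, and of the immune means 3 above and 1 below. Only FAP (-0.078 ± 0.064) and PTPRC (0.047 ± 0.044, SD, n = 4 each) among these markers had 1 sign on all arrays. Over all genes, 3.5% were below 0 on all arrays and 3.56% above.

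**Figure D4:**
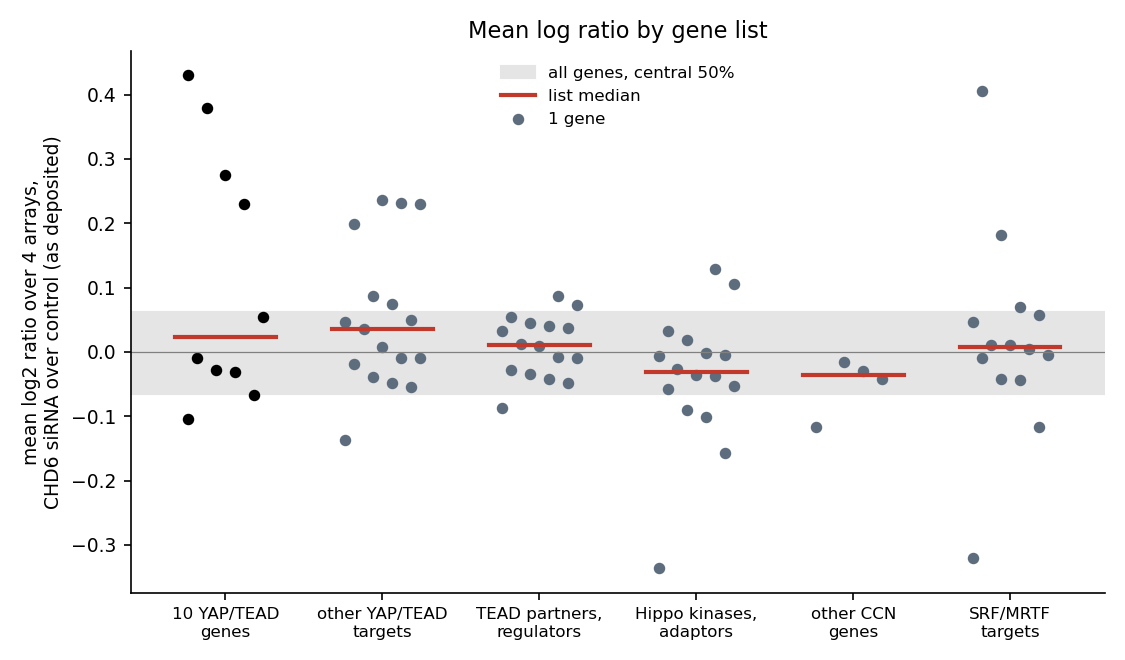
Mean log2 ratio of each gene over the 4 arrays in 6 lists (points), with the list median (red line) and the central 50% of all genes (grey band). CCN1 and AMOTL2 are the top 2 points of the first list at 0.43 and 0.38, and all 6 medians lie inside the grey band.

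The genes whose 4 log ratios were most like those of CCN1, by root mean square difference over the 4 arrays, were DDIT3 (0.096), REG1A (0.10), EMILIN2 (0.11), TTPAL (0.11) and P3H2 (0.13). DDIT3 had log2 ratios of 0.46 and 0.47 with siRNA in Hy5 and of 0.31 and 0.22 with siRNA in Cy3. The genes most like AMOTL2 were PNPLA4 (0.095), RFESD (0.10), SSPN (0.12), NRCAM (0.12) and MOV10 (0.12). None of these 10 genes is on the lists above, and with 4 arrays such a likeness describes the columns only.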

How the data were processed

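Total RNA (200 ng) was amplified, labelled with cyanine dyes and hybridised to 2-colour Agilent arrays, per the labels' protocols. The deposited values were log ratios, taken as log2, in 1 column per array for 45220 features, with 0 missing values and 0 unused columns. Base 2 was assumed because 1 SD of a column then is a 1.36-fold to 1.43-fold ratio, where base 10 would make it 2.75-fold to 3.27-fold. The base was not tested, and every fold ratio given here depends on it. The medians of the columns, in replicate order, were -0.02, 0.03, -0.02 and 0.02. The sources used here do not give the scanner software, background correction, normalization, centring or direction. Signal over background is therefore unknown, and precision is limited by the number of arrays.

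Features naming 1 gene (31332, of which 31291 were matched by gene identifier to RefSeq symbols) were averaged per gene and also kept apart. Of the other features, 93 named several genes and 13795 were unnamed here. limma 3.58.1 in R 4.3.3 was fitted over all genes or features with an intercept (the mean log ratio) and a dye coefficient, with empirical Bayes moderation and Benjamini-Hochberg adjustment. The fit was also run on simulated data with known changes, and the outcome is not given here. An exact sign-flip test over 4 arrays cannot go below a two-sided p of 0.125. Alternatives were the intercept alone, arrays turned by dye, feature medians, other centring and scaling, no or robust moderation, and leaving out each array.

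The members, lists, model and tests were chosen with earlier results of these data known. The text names the 10 genes with their features, CHD6, up to 4 genes per list with the largest means and 1 sign on all arrays (otherwise the 2 largest), any list gene called on the mean log ratio, and the 5 genes nearest to CCN1 and to AMOTL2. F3, AXL, TEAD2, TEAD3, TEAD4 and ACTA2 were named outside this rule, after their values were seen.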

Additional observations from a re-analysis of the deposited data

How the results depend on the processing

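The count of genes called on the mean log ratio (4) was 0 with the intercept alone, 8 with feature medians, 7 with columns centred on their median, 9 with columns at equal spread, 7 with robust moderation and 0 on leaving out any 1 replicate. Turned by dye it was 8219, or 7700 with the intercept alone. For the 10 YAP/TEAD genes this count was 0 in all of these except the turned ones, where it was 5 in both. The dye coefficient was called for 8219 genes and 5 of the 10. These counts were 5 and 0 without moderation, 4656 to 6814 and 2 to 4 without 1 replicate, and 4 and 0 when the arrays were turned, since mean and dye then change places. Among the 10 means, 5 moved by more than their SD between arrays when turned, and CCN1 did so with 3 features only (0.58, a choice made after seeing the data); 0 did under the other settings. CCN1, AMOTL2, AJUBA, ANKRD1 and LATS2 kept their sign in every setting that left the arrays unturned, and the other 5 did not. Of the 8 list medians, 1 moved by more than its spread, without replicate 1. No paired analysis was possible because there is 1 group, and each array already pairs both RNAs.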
